A study of Homo sapiens with 12 samples.

Results

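CCNE2, PCNA, CLSPN and WDR76 are 4 genes whose transcripts accumulate as cells pass from G1 into S phase, and they are described here in LNCaP cells kept in 2 kinds of serum and given a taxane or vehicle. They are 4 of the 14812 genes that could be named on the array. The 4 genes were chosen from measured values of these same arrays, namely their differences between taxane and vehicle and, for CLSPN, between full and charcoal serum in vehicle-treated cells, so those differences are given as a description with no test. Each gene was represented by the transcript cluster (the array's unit of summarised probes) with the highest mean over the 12 arrays. All 4 lay above the median of all values on all 12 arrays and were among the 11105 genes that passed the filter on low values.

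LNCaP is an androgen-responsive human prostate cancer line, and the cells of every group carried the control plasmid MSCV-LMP. The groups were 1 nM cabazitaxel, 1 nM docetaxel and vehicle (ethanol) in full serum, and the same 3 in serum treated with charcoal and dextran, which strips steroid hormones. Treatment lasted 16 h, and each of the 6 groups had 2 arrays, which limits the precision. All arrays come from 1 line at 1 dose and 1 time, and nothing in the labels says that replicates were separate cultures, so the spread behind each p-value is that between these arrays and may be technical.

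Entry into S phase is driven by cyclin-dependent kinases that release E2F transcription factors from the retinoblastoma family, and E2F then switches on the genes of DNA replication. Cyclin E2, the product of CCNE2, is a partner of CDK2 in that step. PCNA is the ring-shaped clamp that holds polymerases on DNA and recruits repair and chromatin factors, and claspin, the product of CLSPN, travels with the fork and passes the ATR signal to the kinase CHK1. WDR76 encodes a WD40-repeat protein, and its yeast relative Cmr1 binds chromatin and damaged DNA. Taxanes stabilise microtubules and are best known for arresting cells in mitosis. Cabazitaxel differs from docetaxel in carrying methoxy in place of hydroxyl groups.

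Promoter windows of PCNA and CLSPN are shown because the 4 genes are grouped as genes of the same cell cycle stage. The sequences are RefSeq's (GRCh38.p14, minus strand, from 250 bases before to 50 bases after a start site), and no window is shown for CCNE2 or WDR76. Whether CCNE2 or WDR76 has an E2F core is not reported here, so the windows shown do not speak for all 4 genes. The capitals mark an E2F core, searched on both strands as TTTGGCGC, TTTCCCGC, TTTCGCGC or TTTGCCGC.
PCNA, chr20:5126573-5126872: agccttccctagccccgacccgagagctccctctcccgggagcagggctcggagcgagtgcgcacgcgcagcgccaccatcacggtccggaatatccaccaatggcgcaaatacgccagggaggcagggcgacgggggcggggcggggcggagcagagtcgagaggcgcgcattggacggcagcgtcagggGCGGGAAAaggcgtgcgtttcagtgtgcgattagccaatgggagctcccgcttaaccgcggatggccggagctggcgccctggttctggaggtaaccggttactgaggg
CLSPN, chr1:35769929-35770228: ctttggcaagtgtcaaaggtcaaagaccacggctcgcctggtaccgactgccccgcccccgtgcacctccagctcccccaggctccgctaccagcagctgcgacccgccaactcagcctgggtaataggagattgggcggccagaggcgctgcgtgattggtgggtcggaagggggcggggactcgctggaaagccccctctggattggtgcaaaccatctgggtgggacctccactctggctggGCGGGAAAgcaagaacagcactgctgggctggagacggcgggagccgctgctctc
In both windows the match is the reverse complement of TTTCCCGC, and it begins at position -59 from the PCNA start and at position -5 from the CLSPN start. An E2F core stood in 3.31% of all 35116 windows of that table. Each of these windows also held 3 matches to the CCAAT box (CCAAT, either strand, present in 34.6% of all windows), a common promoter element, and no match to the CHR element of mitotic genes (TTTGAA, present in 15.2%). A further window of PCNA, chr20:5119909-5120208, had 2 CCAAT matches and no E2F core. Of the other S phase genes listed for comparison below, 23 had windows in the table, 32 in all. An E2F core stood in 15 of these 32 windows, and 14 of the 23 genes had it in at least 1 window. A match describes these letters only and does not show that a factor binds there.

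Replicate arrays correlated across genes at r = 0.986 to 0.992. Of 10 luminal prostate markers, 6 were named by the annotation and all 6 lay above the median of all values, with KLK3, which encodes prostate-specific antigen, at 478 to 1466 and FOLH1, the prostate-specific membrane antigen gene, at 763 to 1421. Of 13 markers of other cells (such as fibroblasts and basal cells), 6 were named. The stromal gene DCN, at no more than 19.0, and the basal keratin gene KRT5 stayed below the median of 22.3 on every array, VIM lay at 28.9 to 39.1, and FN1, a fibronectin gene, was high at 393 to 689. The summed level of the 6 luminal markers was 2631 to 3269.9 in the full-serum groups and 2045 to 2383 in the charcoal-serum groups. That of the 6 markers of other cells was 620.4 to 809 in full serum and 511 to 649.6 in charcoal serum, and in charcoal serum it was 516 to 585 with cabazitaxel and 602 to 649.6 with docetaxel against 511 to 597 with vehicle. The luminal sum in charcoal serum was 2129 to 2383 with cabazitaxel and 2137 to 2302 with docetaxel against 2045 to 2085 with vehicle. The part of these markers in the results below was not tested.

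With either taxane CCNE2, PCNA and WDR76 stood lower than with vehicle in charcoal serum, and CCNE2 and PCNA less so in full serum, whereas CLSPN stood lower than with vehicle in full serum and close to it in charcoal serum. In bulk RNA, fewer cells in S phase and less transcript per cell cannot be told apart. These differences took part in the choice of the genes, and both drugs were set against the same vehicle arrays. Limma called 0 of the 11105 genes (0%) in each of the 4 comparisons of a drug with vehicle within a serum at an adjusted p under 0.05, with 446 to 578 genes at an unadjusted p under 0.05, and the methods' t-test called 0 after Benjamini-Hochberg adjustment. If no gene differed, about 555 of the 11105 would be expected at an unadjusted p under 0.05 in any comparison given here.

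CCNE2 (transcript cluster 17079293) had intensities of 88.4 and 89.3 with cabazitaxel and 94.0 and 89.7 with docetaxel in full serum, against 99.8 and 96.4 with vehicle. In charcoal serum it had 75.2 and 73.9 with cabazitaxel and 77.7 and 78.4 with docetaxel, against 94.0 and 93.1 with vehicle. Every taxane array lay below both vehicle arrays of its serum. The log2 differences from vehicle were -0.14 (SE 0.065) for cabazitaxel and -0.095 (SE 0.065) for docetaxel in full serum, and -0.33 and -0.26 with the same SE in charcoal serum. The replicates of CCNE2 lay close together, with a residual SD of 0.0262 on the log2 scale against a median of 0.0948 over all genes tested, and only 0.585% of the genes had a smaller one. The SE given here is limma's moderated one, which draws such small spreads towards those of other genes.

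PCNA (16916958), the most abundant of the 4 by array intensity, had 291 and 302 with cabazitaxel and 295 and 325 with docetaxel in full serum, against 316 and 323 with vehicle. In charcoal serum it had 247 and 256 with cabazitaxel and 242 and 239 with docetaxel, against 310.4 and 309.6 with vehicle. The taxane and vehicle arrays were well apart in charcoal serum, and in full serum the docetaxel arrays lay on both sides of the vehicle arrays. The log2 differences were -0.11 (SE 0.072) for cabazitaxel and -0.045 (SE 0.072) for docetaxel in full serum, the second of which was 0.026 without full-serum docetaxel replicate 1. In charcoal serum they were -0.30 and -0.37, with the same SE.

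CLSPN (16685165) had 61.6 and 60.6 with cabazitaxel and 64.1 and 62.7 with docetaxel in full serum, against 79.8 and 73.2 with vehicle. In charcoal serum it had 48.0 and 51.4 with cabazitaxel and 58.6 and 54.3 with docetaxel, against 49.1 and 56.8 with vehicle. All 4 taxane arrays of full serum lay below the vehicle arrays, while in charcoal serum the groups overlapped. The log2 differences were -0.32 and -0.27 (SE 0.087) for cabazitaxel and docetaxel in full serum, and -0.087 and 0.096 in charcoal serum. Without charcoal vehicle replicate 2 the difference for cabazitaxel in charcoal serum was 0.018, and without charcoal vehicle replicate 1 that for docetaxel was -0.0092.

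WDR76 (16800355) had 169.3 and 161 with cabazitaxel and 161 and 169.3 with docetaxel in full serum, against 214 and 194 with vehicle. In charcoal serum it had 137 and 124 with cabazitaxel and 143 and 132 with docetaxel, against 188 and 163 with vehicle. The taxane arrays lay below the vehicle arrays in both sera. The log2 differences were -0.30 for each drug in full serum, and -0.43 for cabazitaxel and -0.35 for docetaxel in charcoal serum, all with an SE of 0.094. WDR76 was the only 1 of the 4 genes at -0.30 or lower in all 4 comparisons.

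**Figure D1:**
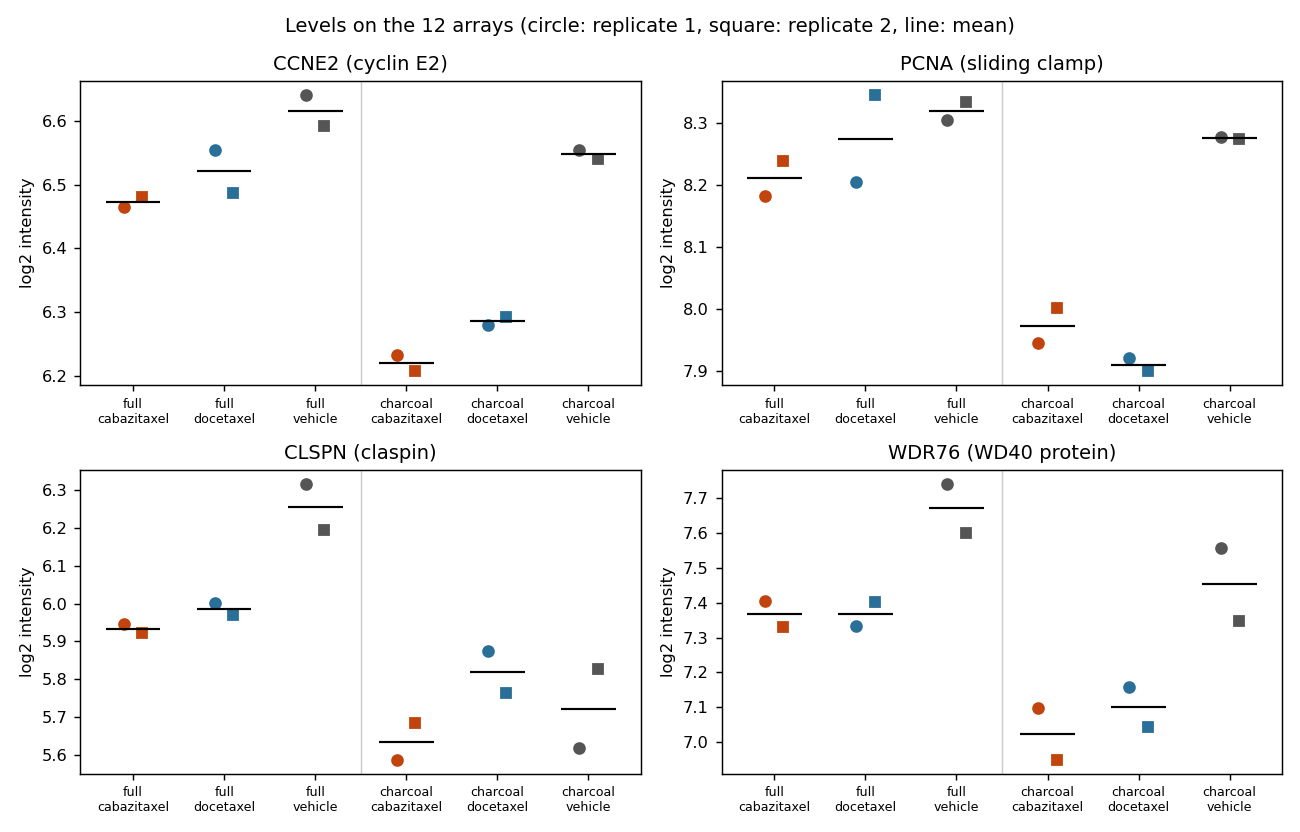
Log2 intensity of each gene on the 12 arrays, with the groups of full serum at the left and those of charcoal serum at the right of each panel; circles are replicate 1, squares replicate 2 and lines the mean of 2 arrays, and each panel has its own vertical range. The charcoal-serum taxane arrays of CCNE2, PCNA and WDR76 are the lowest of the 12, while those of CLSPN overlap the charcoal vehicle arrays.

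Arrays did not overlap, with the taxane lower, for all 4 genes with cabazitaxel in full serum (13.4% of all genes tested did so), for 3 of the 4 with docetaxel in full serum (12.5%), for 3 of the 4 with cabazitaxel in charcoal serum (15.3%) and for 3 of the 4 with docetaxel in charcoal serum (16.4%). The gene that overlapped was PCNA with docetaxel in full serum and CLSPN with each drug in charcoal serum. Nothing is read from these counts, since the same contrasts chose the genes.

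The drug differences in full serum minus those in charcoal serum were positive for CCNE2 and PCNA, which stood lower with taxane mainly in charcoal serum, and negative for CLSPN. For CCNE2 this difference of log2 differences was 0.18 for cabazitaxel and 0.17 for docetaxel (SE 0.092), and for PCNA 0.19 and 0.32 (SE 0.10). For CLSPN it was -0.23 and -0.37 (SE 0.12), and the cabazitaxel value was -0.13 without charcoal vehicle replicate 1. The other transcript cluster annotated to CLSPN, described below, gave 0.019 and 0.31 (SE 0.22), of the opposite sign. For WDR76 it was 0.13 and 0.050, each within its SE of 0.13, and without single arrays these ran from 0.022 to 0.23 and from -0.054 to 0.15. The contrasts that chose the genes enter these values, so they are a description. Limma called 0 of 11105 genes (0%) for either drug, with 380.0 and 401 at an unadjusted p under 0.05.

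**Figure D2:**
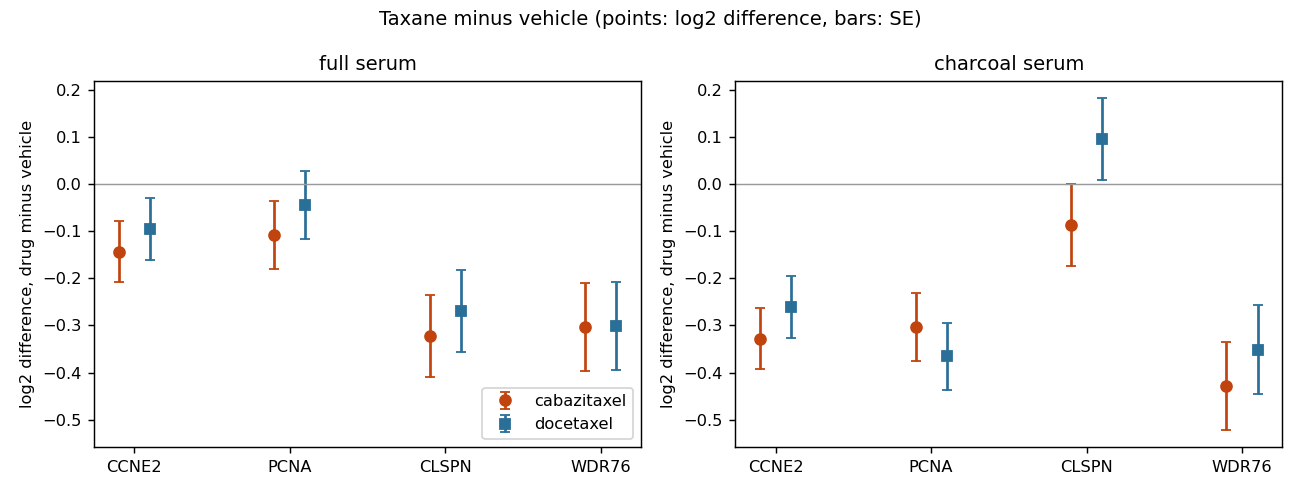
Log2 difference of each taxane from vehicle for the 4 genes in full serum (left) and charcoal serum (right), with bars for the SE of limma. CCNE2 and PCNA lie farther below 0 in charcoal serum, CLSPN lies at -0.32 and -0.27 in full serum and at -0.087 and 0.096 in charcoal serum, and WDR76 lies at -0.30 or below throughout.

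Full serum was then set against charcoal serum among cells given the same taxane, a contrast that the choice of the genes did not use by itself. It is not free of that choice. For each gene it equals the serum difference in vehicle plus the drug difference in full serum minus that in charcoal serum. The drug differences took part in the choice of the genes, and for CLSPN the serum difference in vehicle did too. The p-values, intervals and overlap counts below do not account for that choice. All 4 genes stood higher in full serum under each drug. None of them passed the test over all genes. In 10 simulations of 11105 genes with 200 changed, the docetaxel comparison recovered 0% of genes changed by 0.25 on the log2 scale. It recovered 80% of those changed by 0.5. A miss therefore does not show that a gene is unchanged. The simulations changed 200 genes, more than the 35 that limma called in the data, so the shares recovered may not hold here. Under cabazitaxel limma called 44 genes (0.396%), 29 higher (0.261%) and 15 lower (0.135%) in full serum, with 785 at an unadjusted p under 0.05. Under docetaxel it called 35 genes (0.315%), 18 higher (0.162%) and 17 lower (0.153%), with 903 at an unadjusted p under 0.05. The arrays of all 4 genes did not overlap between the sera under cabazitaxel, with full serum higher, as was so for 17.3% of all genes tested, and the same held under docetaxel, where the background was 20.9%.

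For PCNA the 291 and 302 of full serum with cabazitaxel stood against 247 and 256 of charcoal serum, a log2 difference of 0.24 (95% confidence interval 0.080 to 0.40, limma adjusted p = 0.368). With docetaxel PCNA had 295 and 325 in full serum against 242 and 239 in charcoal serum, a difference of 0.36 (0.21 to 0.52). This had the smallest adjusted p among the 4 genes, which did not pass (limma adjusted p = 0.0785, from 0.0519 to 0.486 over the alternatives run). CCNE2 was higher in full serum by 0.25 under cabazitaxel (0.11 to 0.40, limma adjusted p = 0.274) and by 0.23 under docetaxel (0.091 to 0.38, limma adjusted p = 0.249).

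WDR76 was higher in full serum by 0.34 under cabazitaxel (95% confidence interval 0.14 to 0.55, limma adjusted p = 0.33) and by 0.27 under docetaxel (0.061 to 0.47, limma adjusted p = 0.453). CLSPN was higher by 0.30 under cabazitaxel (0.11 to 0.49, limma adjusted p = 0.359) and by 0.17 under docetaxel (-0.024 to 0.36, limma adjusted p = 0.683). For scale, the largest called differences included the androgen-regulated gene KLK2, with TARP at 1.94, KLK2 at 1.41 and HERC3 at 1.11 higher under cabazitaxel, and CCL2 at -1.04, TLL1 at -0.84 and SESN1 at -0.75. Under docetaxel they were TARP at 2.04, KLK2 at 1.39 and CENPN at 1.04, and TLL1 at -1.11, NIPSNAP3A at -0.90 and SESN1 at -0.79. The summed luminal and other-cell markers given above also differed between the sera.

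In vehicle-treated cells, whose serum contrast took part in the choice of CLSPN, the 4 genes differed in another order. CLSPN had a log2 difference of 0.53 (SE 0.087) between full and charcoal serum, WDR76 one of 0.22 (SE 0.094), CCNE2 one of 0.069 (SE 0.065) and PCNA one of 0.043 (SE 0.072). Leaving out single vehicle arrays gave 0.43 to 0.64 for CLSPN, 0.11 (without charcoal replicate 2) to 0.32 for WDR76, 0.044 (without full-serum replicate 1) to 0.093 for CCNE2 and 0.029 to 0.058 for PCNA. Limma called 44 of 11105 genes in that contrast (0.396%). All 4 genes did not overlap between the sera in vehicle, with full serum higher (15.1% of all genes tested).

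**Figure D3:**
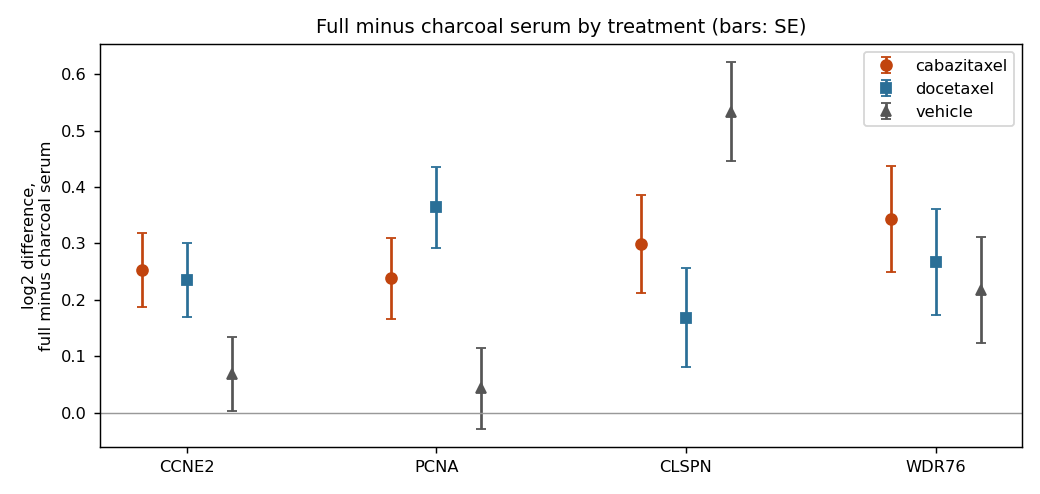
Log2 difference of full from charcoal serum for each gene under cabazitaxel, docetaxel and vehicle, with bars for the SE of limma. Under the taxanes the 4 genes lie between 0.17 and 0.36, while under vehicle CLSPN lies at 0.53 and CCNE2 and PCNA at 0.069 and 0.043.

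The drugs, which share dose and time here, were compared directly in 2 sera and in their mean. The choice of the genes did not use these 3 comparisons by themselves. Each is the cabazitaxel difference from vehicle minus the docetaxel one, and those took part in the choice, so the p-values do not account for it. No difference between the drugs passed the test for any of the 4 genes. Limma called 0 of 11105 genes (0%) in each, with 314 genes at an unadjusted p under 0.05 in full serum, 601 in charcoal serum and 506 in the mean of both, and the methods' t-test called 0 after adjustment. For CLSPN in charcoal serum, the 48.0 and 51.4 of cabazitaxel stood against 58.6 and 54.3 of docetaxel, a log2 difference of -0.18 (95% confidence interval -0.38 to 0.0089, limma adjusted p = 0.886). This was the widest gap between the drugs among the 4 genes. The arrays of 2 of the 4 genes (CCNE2 and CLSPN) lay lower with cabazitaxel without overlap in charcoal serum, against 17.8% of all genes, and the same 2 did in full serum, against 19.3%. PCNA was the 1 gene that lay higher with cabazitaxel without overlap in charcoal serum (16% of all genes).

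As the mean of both sera, cabazitaxel minus docetaxel was -0.057 for CCNE2 (95% confidence interval -0.16 to 0.044, limma adjusted p = 0.958) and -0.0004 for PCNA (-0.11 to 0.11, limma adjusted p = 1). It was -0.12 for CLSPN (-0.25 to 0.018, limma adjusted p = 0.958) and -0.039 for WDR76 (-0.19 to 0.11, limma adjusted p = 0.97). A p that misses the threshold does not show that the drugs act alike.

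The array annotation assigns 2 transcript clusters to CLSPN, and they did not show the same pattern. The other cluster, 16662427, had 50.8 and 50.6 with cabazitaxel and 71.7 and 54.5 with docetaxel in full serum, against 51.8 and 61.7 with vehicle. In charcoal serum it had 42.5 and 54.7 with cabazitaxel and 49.2 and 47.9 with docetaxel, against 49.1 and 60.5 with vehicle. Each taxane group overlapped with the vehicle arrays of its serum except cabazitaxel in full serum, which lay lower. The log2 difference of full from charcoal serum in vehicle was 0.052 (SE 0.16), beside 0.53 for the cluster used above, and that of docetaxel from vehicle in full serum was 0.14, beside -0.27. Over the 12 arrays the 2 clusters correlated with r = 0.469, given as a description. CLSPN lies on the minus strand. Among the named clusters with the nearest identifiers, 31 of 33 belong to plus-strand genes for 16662427, and 29 of 29 to minus-strand genes for 16685165, so the strand that 16662427 reports, and with it what it measures, is not settled here.

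**Figure D4:**
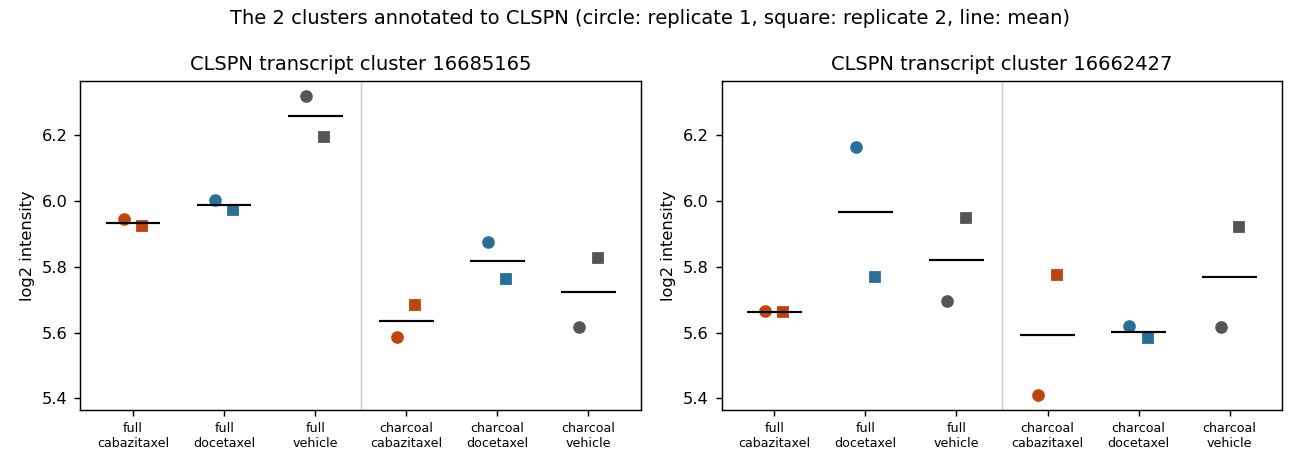
Log2 intensity on the 12 arrays of the cluster used for CLSPN (16685165, left) and of the other cluster annotated to it (16662427, right), with circles for replicate 1, squares for replicate 2 and lines for the mean of 2 arrays. The high full-serum vehicle arrays of the left panel have no counterpart in the right panel, where 1 docetaxel array in full serum is the highest.

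The highest group mean of each gene was that of full-serum vehicle. For CCNE2 the order below it was charcoal vehicle, docetaxel and cabazitaxel in full serum, then docetaxel and cabazitaxel in charcoal serum, and the arrays of charcoal vehicle and full-serum docetaxel overlapped. WDR76 had the same order, with overlap from charcoal vehicle down to full-serum cabazitaxel and again between the charcoal-serum taxane groups. PCNA differed in that charcoal docetaxel was lowest, and charcoal vehicle, full-serum docetaxel and full-serum cabazitaxel overlapped with their neighbours. CLSPN ranked all full-serum groups above all charcoal-serum groups, and its charcoal vehicle arrays overlapped with those of each taxane in charcoal serum, which did not overlap with each other. The span from highest to lowest group mean was 0.40 for CCNE2, 0.41 for PCNA, 0.62 for CLSPN and 0.65 for WDR76 on the log2 scale.

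Over the 12 arrays, CCNE2 correlated with WDR76 at r = 0.930 and with PCNA at r = 0.912, and CLSPN with the other 3 at r from 0.572 (PCNA) to 0.691 (WDR76). These are descriptions over 12 arrays that share the 6 groups and the normalization. Within groups the replicate with the higher value was the same one for CCNE2 and PCNA in 2 of 6 groups, and for CCNE2 and WDR76 in 3 of 6. The genes with the nearest profile to WDR76 were MCM10 (r = 0.954), FEN1 (r = 0.954) and MCM3 (r = 0.951), which serve replication initiation and Okazaki fragment processing. Those nearest to PCNA were CCNE2, the centromere gene CENPU (r = 0.897) and RRM2 (r = 0.897), a subunit gene of ribonucleotide reductase. Those nearest to CCNE2 were GAL3ST4 (r = 0.931), a sulfotransferase gene, WDR76 and FBXO5 (r = 0.92), an inhibitor of the anaphase-promoting complex. CLSPN had other neighbours, BUB3 (r = 0.916), a spindle checkpoint gene, RMC1 (r = 0.908) and the growth factor receptor gene IGF1R (r = 0.899).

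A list of 39 further S phase genes was set beside the 4, and 27 of these were named and tested. Under cabazitaxel 26 of the 27 were higher in full than in charcoal serum, with a median log2 difference of 0.19 beside -0.0017 over all genes tested, and under docetaxel 25 of 27 were higher, with a median of 0.19 beside 0.0079. Limma called 0 of them under cabazitaxel and 1 under docetaxel, CDC6, which loads the replicative helicase. CDC6 had 213 and 192 in full serum with docetaxel against 139 and 108 in charcoal serum, and rose by 0.72 (SE 0.13, limma adjusted p = 0.0477). That call was lost without charcoal docetaxel replicate 2 (limma adjusted p = 0.32), full-serum docetaxel replicate 1 (0.35) or full-serum docetaxel replicate 2 (0.193), with no filter (0.123), with only the arrays compared (0.161) and with an assumed offset of 16 subtracted (0.195), and over all alternatives the adjusted p ran from 0.0265 to 0.35. In vehicle 21 of 27 were higher, with a median of 0.12 beside -0.011.

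Against vehicle the same list stood lower with cabazitaxel for 23 of 27 genes in full serum (median -0.11, beside 0.0083 over all genes) and for 27 of 27 in charcoal serum (median -0.22, beside -0.004). With docetaxel it stood lower for 16 of 27 in full serum (median -0.063, beside 0.017) and for 24 of 27 in charcoal serum (median -0.18, beside 0.0018). Limma called 0 of the 27 in each. Over the alternatives the count for docetaxel in full serum ran from 15 to 21, and was lowest without full-serum vehicle replicate 1. The members with the largest differences as the mean of both sera were MCM5 (-0.45, SE 0.10), a helicase subunit gene, E2F8 (-0.34, SE 0.11), a repressive E2F, and DTL (-0.34, SE 0.081), which targets proteins bound to PCNA for degradation, with cabazitaxel. With docetaxel they were E2F8 (-0.32), DTL (-0.29) and CDC45 (-0.28, SE 0.063), a helicase cofactor. The choice of the 4 genes used these comparisons and, for CLSPN, the serum contrast in vehicle, so their place beside the list is a description. CLSPN lay above all 27 genes for docetaxel in charcoal serum, at 0.096 where they spanned -0.43 to 0.073, and between the sera in vehicle, at 0.53 where they spanned -0.26 to 0.43. For docetaxel in charcoal serum CLSPN was at -0.0092 without charcoal vehicle replicate 1. The other cluster annotated to CLSPN gave -0.17 for docetaxel in charcoal serum and 0.052 between the sera in vehicle, both within those spans. WDR76 lay below all 27 with docetaxel as the mean of both sera, at -0.33 (SE 0.066) where the lowest, E2F8, was at -0.32 (SE 0.11). Without single arrays WDR76 ran from -0.38 to -0.27, so the order of WDR76 and E2F8 is not settled.

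**Figure D5:**
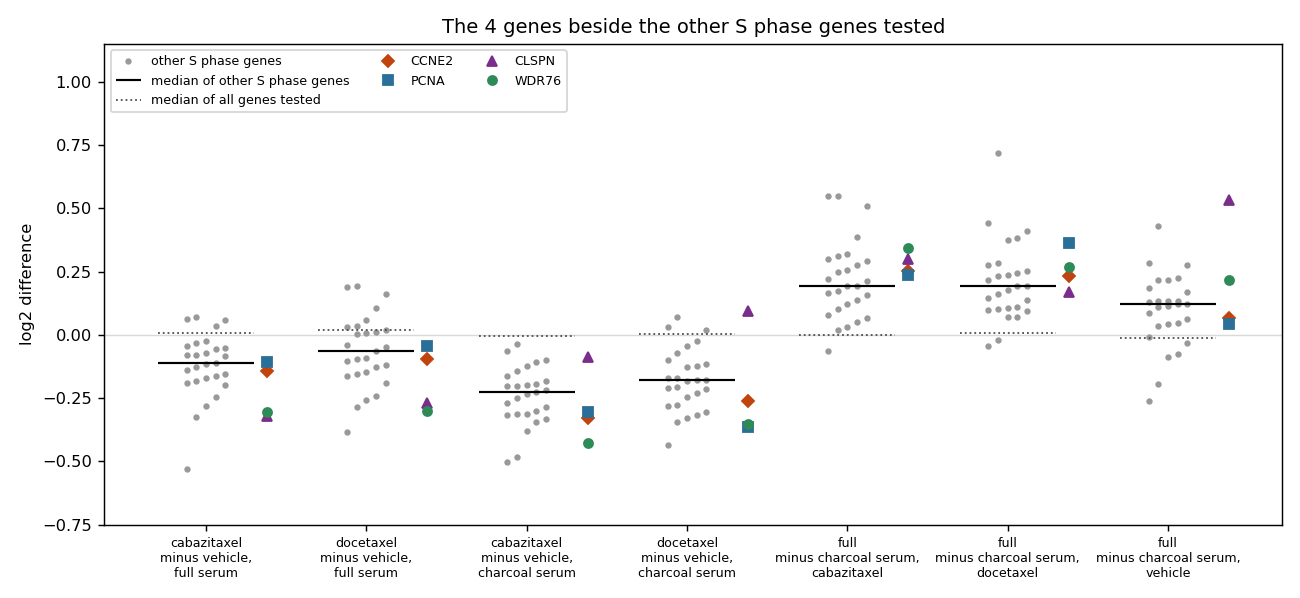
Log2 differences of 27 other S phase genes (grey points, with their median as a line and the median of all genes tested as a dotted line) in 4 comparisons of a taxane with vehicle and 3 of full with charcoal serum, with CCNE2, PCNA, CLSPN and WDR76 as symbols to the right of each column. The list lies mostly below 0 against vehicle, most so in charcoal serum, and above 0 in the serum contrasts, where CLSPN in vehicle stands at 0.53.

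Further lists by role share genes with the S phase list (such as E2F8, DTL, FEN1 and UHRF1) and with each other (such as CDC25A and DNMT1). Their counts are therefore not independent. By role, 18 of 26 listed G1/S cyclin, kinase, E2F and pocket protein genes were tested, and as the mean of both sera 15 of them stood lower with cabazitaxel and 11 with docetaxel (medians -0.048 and -0.041). CDC25A, a phosphatase that activates CDK2, stood at -0.24 and -0.19, CDK2 at -0.24 with cabazitaxel, and E2F3 at 0.27 with docetaxel. Of 24 clamp loader and clamp partner genes 8 were tested, of which 8 stood lower with cabazitaxel and 6 with docetaxel. FEN1, a flap endonuclease that binds PCNA, stood at -0.20 with each drug, the methyltransferase gene DNMT1 at -0.19 with cabazitaxel and the glycosylase gene UNG at -0.10 with docetaxel. Limma called 0 genes of either list with either drug.

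Of 19 replication checkpoint genes 16 were tested, with 13 lower with cabazitaxel and 10 with docetaxel. CDC7, a kinase that fires origins, stood at -0.25 and -0.21, WDHD1 at -0.23 with cabazitaxel, and RAD17, which loads the checkpoint clamp, at 0.24 with docetaxel. Of 18 genes of chromatin assembly and maintenance at the fork 14 were tested, with 12 lower with cabazitaxel and 10 with docetaxel, among them the histone chaperone gene ASF1B (-0.25 and -0.18) and UHRF1 (-0.14 and -0.18), while CDCA7 stood at -0.13 with docetaxel. The 42 mitosis genes tested of 53 listed stood lower with cabazitaxel for 30 (median -0.036) and with docetaxel for 17 (median 0.025). AURKB, a mitotic kinase gene, stood at -0.24 and -0.17, TMPO at -0.22 and MKI67 at -0.20 with cabazitaxel, and CCNB2 at 0.18 and BUB1 at 0.17 with docetaxel. Over all genes, 48.9% stood lower with cabazitaxel and 45.0% with docetaxel as the mean of both sera. Limma called 0 genes of these lists with either drug, and 0 of all 11105 (0%), with 520.0 and 672 at an unadjusted p under 0.05.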

How the data were processed

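RMA, per the submitters' processing notes and with no version given, made the deposited values, which are intensities on a linear scale. The series' design text mentions a filter on low-expressing genes, with no threshold. Values ran from 17.3 to 6307, with 57.5% below 24, so changes of weak genes are compressed, and the genome build is not given in the sources used here. From these values log2 was taken, and 15835 of 44629 transcript clusters carried 1 gene symbol in the platform annotation. The cluster with the highest mean was kept for each of 14812 genes, and limma 3.58.1 (R 4.3.3) tested the 11105 genes that exceeded 22.3, the median over the whole matrix, on 2 or more arrays. All 12 arrays entered 1 fit with a mean per group (6 residual and 5.08 prior degrees of freedom). P-values are two-sided and adjusted by Benjamini-Hochberg over all genes, and the scripts were tested on simulated data. The 4 genes and all gene lists were chosen with earlier results of these data known. List genes are named by the size of their difference as the mean of both sera, and further genes by the highest r with each of the 4. Alternatives were the offset, filter, scaling, replicate block, arrays fitted, variance model, clusters averaged, each array left out, and the methods' t-test. The other CLSPN cluster and the list counts under alternatives were added after the data were seen.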

Additional observations from a re-analysis of the deposited data

How the results depend on the processing

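None of the 20 differences of the 4 genes that were tested passed in any alternative run, and all serum differences under a taxane kept their direction. Among the drug comparisons, PCNA in the mean of both sera was 4.81e-05 with an assumed offset of 16 subtracted and 0.036 with quantile normalization. With quantile normalization WDR76 was 0.028 in full serum and 0.0068 in the mean of both, against -0.0016 and -0.039. Leaving out single arrays gave -0.036 to 0.035 for PCNA in the mean, -0.13 to 0.0072 for PCNA in full serum and -0.038 to 0.035 for WDR76 in full serum. The causes were not tested.

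Called genes between the sera (44 under cabazitaxel, 35 under docetaxel, 44 under vehicle) became 10, 9 and 16 with the offset subtracted, which lowers the floor, and 25 and 22 under the taxanes with no filter. With only the arrays compared they became 7, 12 and 1. Leaving out single arrays gave 9 to 19, 7 to 21 and 7 to 43. The 43 came without full-serum vehicle replicate 1, and leaving out any other vehicle array gave 14 or fewer. The methods' t-test gave 618, 778 and 621 at an unadjusted p under 0.05 and 2, 0 and 0 after adjustment. At that unadjusted p it gave 455 in full serum, 554 in charcoal serum and 500.0 in their mean for cabazitaxel against docetaxel. For cabazitaxel against vehicle it gave 478, 431 and 450.0, and for docetaxel against vehicle 515, 492 and 546, in the same order. No drug comparison had a call in any limma fit.

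With the replicate block the counts between the sera were 47 under cabazitaxel, 62 under docetaxel and 70.0 under vehicle, and no call of the 4 genes changed. Replicate deviations of 2 groups correlated with r from -0.049 to 0.33, over 0.1 in 10 of 15 pairs of groups and over 0 in 14. Arrays with the same replicate number thus tended to deviate alike across groups. The labels do not say what the number stands for, and the main fit did not treat the arrays as paired, so it leaves this shared part in the spread. For CLSPN, averaging both clusters gave 0.29 between the sera in vehicle, against 0.53. Signal limits the weak genes, since 57.5% of the values lay below 24, close to the lowest value of 17.3, and 2 arrays a group limit all of them.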
